A study of Mus musculus with 4 samples.

Results

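Proximal tubular epithelial cells (PTECs) that carry the injury markers *Havcr1*, *Vcam1* or *Krt20* are described here, 96 barcodes of 48085 in 4 single-cell RNA libraries of the renal cortex of male mice. They were chosen by their counts of 8 genes. A barcode was kept if at least 1000 genes were detected, at most 50% of its unique molecular identifiers (UMIs, each standing for 1 captured transcript) came from mitochondrial genes, *Lrp2* had at least 2 UMIs, *Havcr1*, *Vcam1* and *Krt20* had at least 2 UMIs together, *Pecam1* and *Ptprc* had none, and *Slc12a1* and *Umod* made up fewer than 20 per 10000 UMIs. Barcodes that met every condition but had 0 UMIs of the 3 markers, 11430 in number, served as marker-negative PTECs, and another 207 with exactly 1 marker UMI were set aside. Of the 32407 barcodes that passed the filters on genes and mitochondrial UMIs, 11733 met the conditions on *Lrp2* and the excluded classes. Young mice were 6 weeks and aged mice 24 months old, and at each age there was 1 library of Tfebfl/fl mice, the controls, and 1 of Tfebfl/fl KAP mice. Lists of 4 values give the control and then the KAP library of young mice, followed by the control and the KAP library of aged mice. All mice carried the floxed *Tfeb* allele, and in KAP mice Cre recombinase was driven by the *Kap* promoter, which responds to androgen and acts in the S3 segment, the last stretch of this tubule. Each library was made from cortex pooled from more than 1 mouse, so 1 library stands for a condition and no difference between conditions could be tested against the spread between mice. The libraries held 16945, 12685, 8358 and 10097 barcodes with 194747936, 155327520, 125729484 and 135792884 UMIs. Between 27 and 57 barcode sequences were shared by any 2 libraries, and no marker-positive barcode was among them.

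The proximal tubule takes back most of the filtered glucose, phosphate, amino acids and protein, and it pays for this transport mainly by burning fatty acids in its mitochondria. PTECs that survive an injury lower their transporters, can divide and regrow, and some of them stay in a state in which repair has failed. HAVCR1 (kidney injury molecule-1) marks the acute injury, KRT20 is a keratin of injured tubules, and VCAM1, an adhesion molecule induced through the transcription factor NF-κB, marks the state of failed repair in mice. VCAM1 is also made by endothelial cells and by the parietal epithelium of Bowman's capsule, which adjoins the proximal tubule. *Tfeb* encodes a transcription factor that switches on lysosome and autophagy genes.

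The label of these barcodes as injured PTECs rested almost wholly on *Vcam1*. Of the 96 members, 89 carried *Vcam1* alone, 3 *Havcr1* and *Vcam1*, 2 *Vcam1* and *Krt20*, and 2 *Havcr1* alone. *Vcam1* reached 255, 147, 322 and 302 CPM (the counts of a gene summed over the marker-positive barcodes of a library, scaled to a common total of UMIs), *Havcr1* 0, 0, 23.1 and 1.18 CPM, and *Krt20* 0, 0, 3.603 and 0 CPM. Of the *Havcr1* UMIs in aged Tfebfl/fl mice, 24 came from 1 cell. That cell also had 6 *Vcam1*, 361 *Spp1*, 36 *C3* and 11 *Cldn1* UMIs. The 2 cells with *Havcr1* alone, with 3 and 4 UMIs, had 126 and 49 UMIs of the phosphate transporter *Slc34a1* and 45 and 526 of *Spp1*, the latter the highest count of any member, and none of *C3*, *Sox4* or *Cp*. A comparison of *Havcr1*-positive with *Vcam1*-positive cells was therefore not made, and the members are called marker-positive or *Vcam1*-positive below. The number of marker UMIs ranged from 2 to 43, with 29 cells at 2, 24 at 3 to 4, 19 at 5 to 9 and 24 at 10 or more.

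The members held proximal tubule transcripts beyond *Lrp2*, which the rule required. *Lrp2* itself, the endocytic receptor megalin, stood at 793, 865, 1128 and 1170 CPM, against 1035, 1039, 1305 and 1124 CPM in marker-negative PTECs. Of 30 identity genes of the proximal tubule, a median of 21, 21, 25 and 25 were detected per member, and 94 of the 96 members had at least 5. Members were deeper than marker-negative cells in every library, though by little in the young KAP library. The median depth of members was 30372, 17888.5, 25236.5 and 27393 UMIs, against 18296, 17726, 21690 and 18697.5 UMIs, and their median share of mitochondrial UMIs was 21.9, 15.05, 21.1 and 15.01%, against 24.6, 23.2, 23.1 and 21.8%.

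Markers of a second class were found in part of the members, more often in young mice. At least 2 markers of another class with at least 2 UMIs each were carried by 5 of 11, 6 of 10, 5 of 48 and 7 of 27 members, 23 in all (24.0%), against 12.5% of marker-negative cells. The classes were the connecting tubule and principal cells (8 members), the parietal epithelium (8), endothelium (7), mesangial and mural cells (6), podocytes (3), fibroblasts (2) and myeloid cells (2), with some members counted in more than 1, and none were of the thick ascending limb, the distal convoluted tubule or intercalated cells. Scrublet, which scores barcodes that look like 2 cells in 1 droplet, marked 6, 5, 3 and 2 members. The fibroblast gene *Dcn* reached 1222 CPM over the 10 members of young Tfebfl/fl KAP mice, 1 of which carried fibroblast markers, and was 0 in members of the young control and aged KAP libraries. The 3 parietal markers *Cldn1*, *Ncam1* and *Dkk3* summed to 321, 196, 59.8 and 66.0 CPM in members, against 22.9, 14.7, 12.1 and 9.95 CPM in marker-negative cells. *Cldn1*, a tight junction protein, was the most abundant of them. All 3 were higher in members in the fit over the 4 libraries described below, although *Dkk3* was at 0 in members of aged Tfebfl/fl mice. Without cells that carried other classes' markers the list still summed to 143, 185, 59.5 and 65.2 CPM in members, and the part of parietal cells in the results was not tested. The 10 endothelial markers summed to 60.1, 62.4, 130 and 42.4 CPM, against 4.98, 17.3, 19.97 and 28.7 CPM, with *Pecam1* at 0 by the rule. *Cd74*, the invariant chain of antigen presentation, made up most of the myeloid list at 243, 26.7, 241 and 412 CPM, against 9.59, 17.0, 21.3 and 12.7 CPM, while 7, 7, 4 and 1 of the other 8 myeloid genes were at 0. The part of such markers in the results below was measured by repeating each fit on the 72 members (6, 3, 43 and 20) with at least 5 identity genes and no other class's markers, set against marker-negative cells chosen the same way.

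Marker-positive cells made up a larger share of PTECs in the aged libraries. The share was 0.293% (exact 95% binomial interval 0.146 to 0.523%) and 0.327% (0.157 to 0.601%) in young Tfebfl/fl and Tfebfl/fl KAP mice, and 1.81% (1.34 to 2.40%) and 1.19% (0.784 to 1.72%) in aged Tfebfl/fl and Tfebfl/fl KAP mice. The intervals of both aged libraries lay above those of both young ones, while the intervals of the 2 genotypes overlapped at each age. These intervals cover counting error only, not differences between mice. After every barcode had been thinned to 3000 UMIs, a depth at which 1 marker UMI was enough and 85, 76, 37 and 37 shallower PTECs dropped out, the shares were 0.245, 0.302, 1.61 and 0.983%. Without cells that carried other classes' markers they were 0.188, 0.112, 1.80 and 0.999%. The separation of the intervals depended on the thresholds. At no more than 20% mitochondrial UMIs the interval of young KAP mice (0.359 to 1.48%) overlapped those of aged Tfebfl/fl (1.43 to 3.36%) and aged KAP mice (0.863 to 2.52%). With at least 3 marker UMIs that of young Tfebfl/fl mice (0.146 to 0.523%) overlapped that of aged KAP mice (0.436 to 1.19%). With at least 1 marker UMI the 2 aged genotypes did not overlap, at 5.97% (5.09 to 6.94%) and 2.95% (2.29 to 3.73%). The matrices had already been corrected for free RNA, as given below, so only what was left of it could be measured. This was done in classes that should lack these markers. At most 1 of 808 to 1266 barcodes of the distal convoluted tubule in each library met the marker condition (up to 0.124%), at median depths of 11402.5 to 14032.5 UMIs. In the thick ascending limb it was at most 2 of 847 to 2704 (up to 0.114%), at 10650.5 to 13806 UMIs. In endothelial barcodes, which make *Vcam1*, it was 7.09 to 12.4%.

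**Figure D1:**
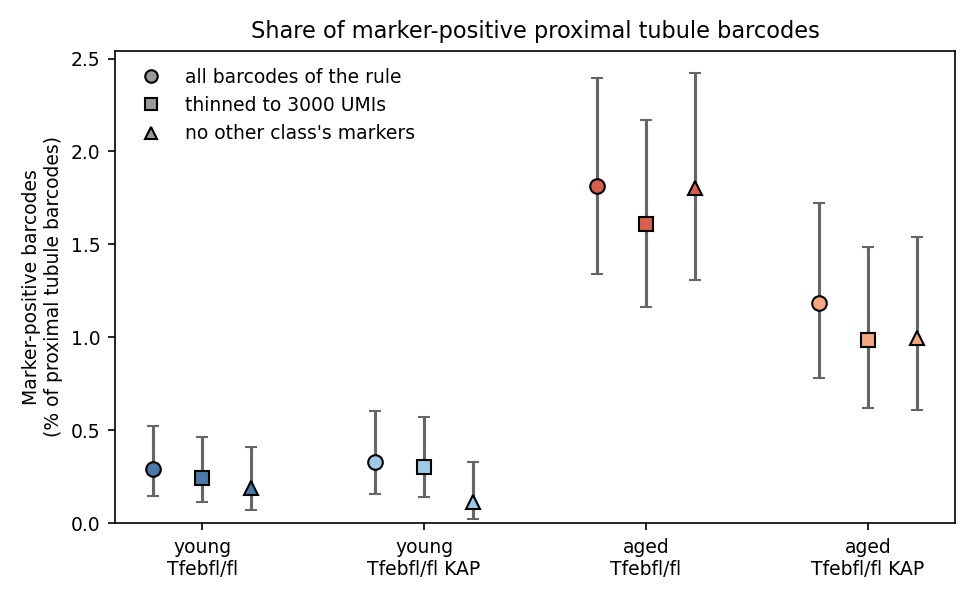
Share of marker-positive barcodes among PTEC barcodes (percent, y axis) in the 4 libraries (x axis). Circles show all barcodes of the rule, squares barcodes thinned to 3000 UMIs and triangles barcodes without other classes' markers, and bars are exact 95% binomial intervals, which cover counting error only. Both aged libraries lie above both young libraries in each of the 3 versions.

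Counts were then summed over marker-positive and over marker-negative cells of each library, and the 8 sums were compared with edgeR's quasi-likelihood test with the library as a block, so that the difference within a library was measured 4 times. The genes higher in marker-positive cells included some of the lists of injury and repair, NF-κB targets and chemokines, matrix and immediate early genes, and those lower included some of the lists of proximal tubule identity, the S3 segment, fatty acid oxidation and oxidative phosphorylation, with the counts given below. Of 12882 genes tested, 998 were higher (7.75%) and 1392 lower (10.8%) at an adjusted p under 0.05, and 3721 had an unadjusted p under 0.05. The split depended on the scale. By default edgeR sets the scale so that most genes do not change (TMM), and the median log2 fold change of all genes was -0.02. On library totals without TMM the median was 0.34, with 3116 genes higher and 608 lower. Changes are therefore given relative to most genes, and a direction that turned on library totals is named. The cells were selected on *Vcam1*, *Havcr1* and *Krt20*, so the fit says which other genes differed with those markers, and the 8 genes of the rule were not tested.

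The most abundant of the 15 genes with the largest increase was complement component *C3*, the central protein of the complement cascade. In marker-positive cells it stood at 553, 499, 463 and 510 CPM, against 1.64, 1.72, 5.49 and 1.97 CPM in marker-negative cells. An increase in every library was a condition for the 15 genes. The log2 fold change was 7.28 ± 0.48 (SE, n = 4 libraries, edgeR adjusted p = 0.0023). At least 1 *C3* UMI was found in 57.3% of members, against 4.11% of marker-negative cells drawn to the same depth, and 203 of the 1371 *C3* UMIs came from 1 cell. *Cp*, the copper oxidase ceruloplasmin, stood at 294, 263, 109 and 133 CPM, against 1.80, 0.928, 1.61 and 2.11 CPM (log2 fold change 6.40 ± 0.44, adjusted p = 0.0017). Members from young mice had more *Cp* than members from aged mice. *Tmsb10*, an actin-binding thymosin, followed the same order at 288, 285, 95.8 and 48.3 CPM, against 5.98, 2.93, 2.78 and 1.18 CPM (5.24 ± 0.18, adjusted p = 1.3e-25).

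The other genes with the largest increases were less abundant. *Ubd*, a ubiquitin-like protein induced by cytokines, stood at 9.01, 62.4, 21.6 and 36.5 CPM and was below 1 CPM in marker-negative cells of every library, where 25 of 11430 barcodes held 37 UMIs. *Sfrp5*, a secreted inhibitor of Wnt signalling, had 16, 18, 13 and 5 UMIs in members and was found in 7 marker-negative barcodes. A fold against so few counts is no measure of size. *Dock10*, *Defb36*, *Adamts5*, *Akap12*, *Dpysl3*, *Sytl2*, *Bgn*, *Marcks*, *Aoc1* and *Fhl2* had values of 5.02 to 6.90. *Adamts5*, a protease of the matrix, reached 75.1, 107, 204 and 51.8 CPM, and *Akap12*, a scaffold of protein kinase A, 195, 103, 13.0 and 11.8 CPM. In cells without other classes' markers 9 of the 15 genes could be tested and all 9 were higher, with *C3* at 7.14 and *Cp* at 5.81. *Sfrp5*, *Dock10*, *Defb36*, *Sytl2*, *Bgn* and *Marcks* had too few counts there to be tested. The 15 genes were chosen as the largest increases over members that include these cells, so this is no independent check.

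**Figure D2:**
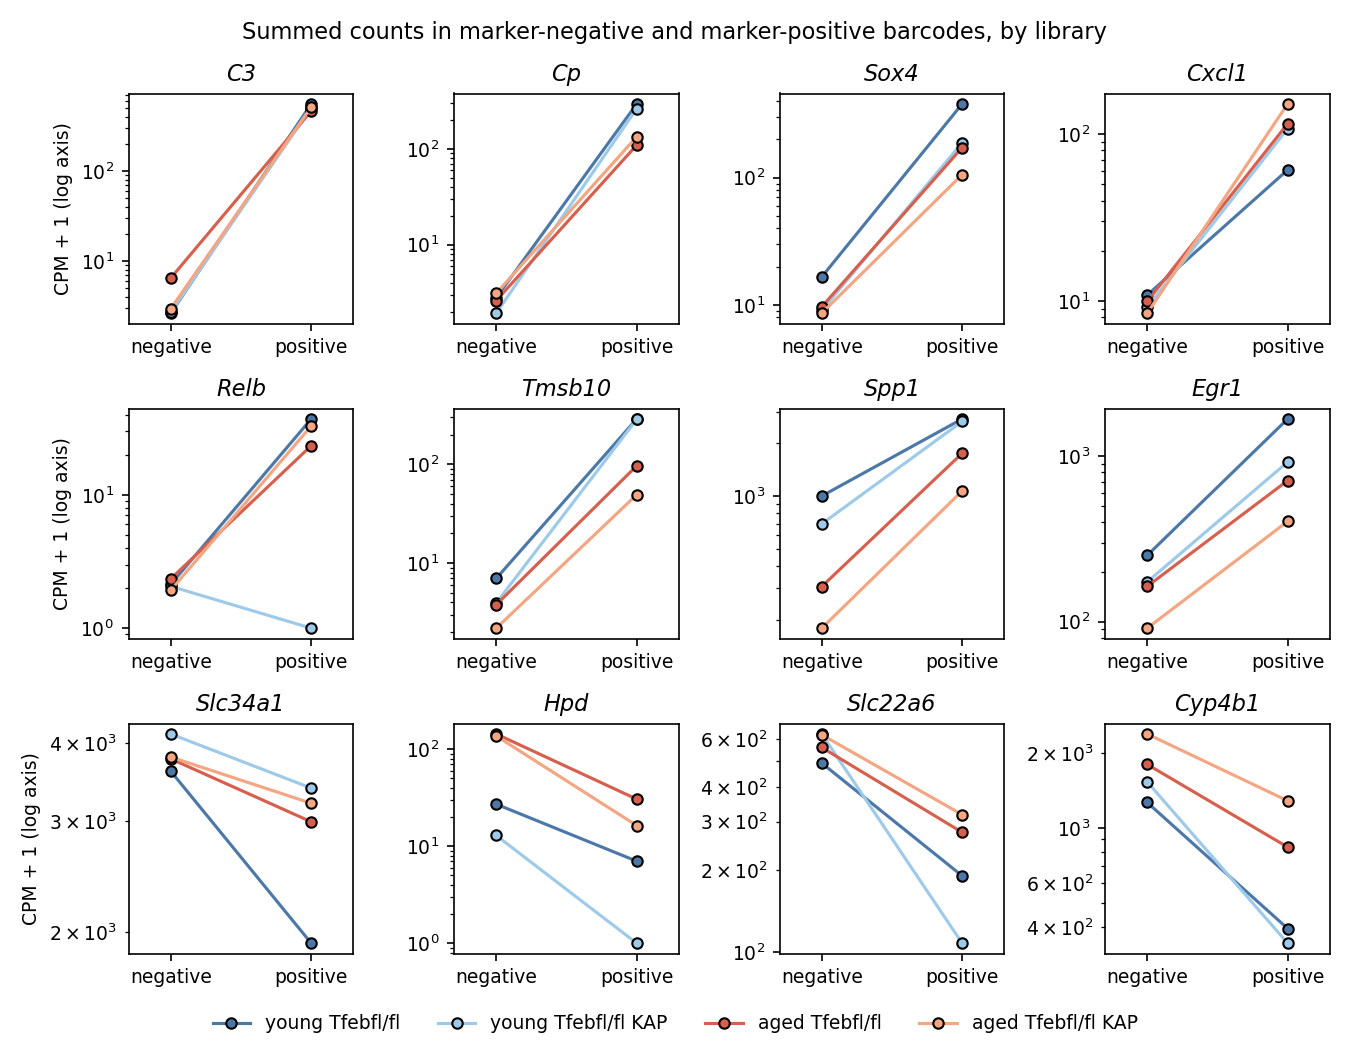
Level of 12 genes (CPM + 1, log axis) in marker-negative and marker-positive cells, with 1 line for each of the 4 libraries. In *C3*, *Cp*, *Sox4*, *Cxcl1*, *Tmsb10*, *Spp1* and *Egr1* all 4 lines rise, *Relb* is at 0 in marker-positive cells of young Tfebfl/fl KAP mice, and the 4 lines of *Slc34a1*, *Hpd*, *Slc22a6* and *Cyp4b1* fall.

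Of 40 genes linked to injury and repair, 36 could be tested, and 21 were higher and 1 lower, with a median log2 fold change of 1.45. Without other classes' markers 22 of 29 were higher (median 1.94). *Sox4*, a transcription factor of embryonic and injured epithelium, stood at 378, 187, 171 and 105 CPM, against 15.6, 8.08, 8.69 and 7.64 CPM (3.91 ± 0.15, adjusted p = 8.7e-30). Every library showed the increase, and *Sox4* was detected in 49.0% of members, against 8.43% of depth-matched marker-negative cells. *Sox9*, a factor of tubule regeneration, was counted in 3 of the 4 libraries at 48.0, 0, 15.9 and 61.3 CPM, against 0.553 to 0.797 CPM (4.94 ± 0.61, adjusted p = 1.5e-06). *Spp1*, the secreted phosphoprotein osteopontin, was the most abundant of the named injury genes at 2745, 2657, 1753 and 1071 CPM, against 1002, 696, 306 and 178 CPM (1.72 ± 0.23, adjusted p = 0.00083). Without other classes' markers the value of *Spp1* was 1.94 and was no longer past the threshold (edgeR adjusted p = 0.35). The difference there was larger in aged than in young mice, as given below. *Krt8*, a keratin of simple epithelia, was higher by 1.09 ± 0.13, *Vim*, the intermediate filament of mesenchymal cells, by 3.32 ± 0.42, and *Timp2*, an inhibitor of matrix proteases, by 4.70 ± 0.61.

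Several standard injury genes did not pass. *Lcn2*, the secreted injury protein NGAL, had 0, 0, 0 and 1 UMI in members, and was detected in 1.04% of them, against 2.13% of depth-matched marker-negative cells. *Cdkn1a*, which encodes the cell cycle inhibitor p21, stood at 300, 26.7, 66.3 and 10.6 CPM, against 11.6 to 17.8 CPM (1.99 ± 0.90, adjusted p = 0.28), and was high in the 2 Tfebfl/fl libraries. *Krt18* stood at 111, 35.7, 6.48 and 2.36 CPM, against 4.17 to 10.8 CPM (1.31 ± 0.92, adjusted p = 0.48), and passed without other classes' markers (2.24, adjusted p = 0.0031). *Clu*, clusterin, had -1.50 ± 0.65 (edgeR adjusted p = 0.27), and without other classes' markers it turned to 3.27. Its value was also touched by a correction for free RNA, as given below. *Cd44* and *Ccl2* had too few counts in the marker-negative sums for a test, and 98 of the 114 *Ccl2* UMIs in members came from 3 cells of aged Tfebfl/fl mice.

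Targets of NF-κB and chemokines were mostly higher. Of 27 genes 19 could be tested, and 13 were higher and 1 lower (median 1.84, and 1.90 without other classes' markers, where 12 of 17 were higher). *Cxcl1*, which draws neutrophils, stood at 60.1, 107, 115 and 151 CPM, against 9.84, 8.17, 8.94 and 7.44 CPM (3.32 ± 0.25, adjusted p = 2.3e-06). It was higher in every library and was detected in 52.1% of members, against 9.47% of depth-matched cells. *Relb*, a subunit of NF-κB itself, stood at 36.0, 0, 22.3 and 31.8 CPM, against 0.928 to 1.35 CPM (3.96 ± 0.51, adjusted p = 4.5e-08). *Csf1*, a growth factor of macrophages, was higher by 3.46 ± 0.77 but rested on 9, 1, 13 and 0 UMIs.

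The promoters of these genes were searched for a short form of the NF-κB motif, GGGNNTNNCC, on both strands, in the 300 bases from 250 before to 50 after each RefSeq gene start (build GRCm38.p6, the mm10 build of the files). The motif was found in 20.5% of 27025 genes with a promoter in the table and in 26.7% of the 9958 of them that were tested. A gene with more than 1 start was counted if any of its windows held a match. The motif was found in 12 of the 19 listed NF-κB targets with an entry (63.2%) and in 8 of 32 injury and repair genes (25.0%). These counts cover all listed genes, called or not. The first list was made of known NF-κB targets and chemokines, so its larger share says nothing about marker-positive cells. The 150 bases before the gene start are shown, 5′ to 3′ on the strand of the gene, for *Cxcl1* and for *C3* and *Ubd*, which were among the 15 genes with the largest increase, with matches in capitals.
*Cxcl1* (plus strand, chr5:90891095-90891244): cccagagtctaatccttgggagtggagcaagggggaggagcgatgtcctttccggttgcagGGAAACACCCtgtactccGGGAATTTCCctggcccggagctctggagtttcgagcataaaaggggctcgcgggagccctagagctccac
*C3* (minus strand, chr17:57228137-57228286): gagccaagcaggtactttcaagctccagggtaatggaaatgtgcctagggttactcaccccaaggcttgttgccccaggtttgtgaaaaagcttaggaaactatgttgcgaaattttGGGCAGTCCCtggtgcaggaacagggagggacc
*Ubd* (plus strand, chr17:37193742-37193891): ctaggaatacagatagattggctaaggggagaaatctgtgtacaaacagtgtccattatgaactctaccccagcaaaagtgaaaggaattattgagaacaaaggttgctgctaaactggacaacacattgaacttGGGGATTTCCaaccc
*Cxcl1* has 2 matches, at -89 on the opposite strand and at -71, *C3* has 1 at -33 on the opposite strand, and *Ubd* has 1 at -15, each counted from the gene start to the first base shown in capitals. No match was found in either window of *Cp*. A match is a description of the letters and not evidence of binding.

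The higher genes also included some of the matrix, the cytoskeleton and the early response. In the list of matrix genes and growth factors 12 of 22 were higher and 1 lower (median 1.29), but the number was 8 of 19 without other classes' markers. The median fell to 0.88 without doublets and to 0.39 without other classes' markers in depth-matched cells. *Ccn2*, a matrix protein induced by TGF-β, stood at 27.0, 98.1, 195 and 58.9 CPM, against 1.303 to 5.19 CPM (4.81 ± 0.84, adjusted p = 0.046), and its 271 UMIs in aged Tfebfl/fl mice came from 5 of 48 cells. *Tgfb1* and *Tgfb2*, which encode TGF-β ligands, were higher by 3.34 ± 0.61 and 3.57 ± 0.58 but reached at most 22.3 and 18.0 CPM in any library. In the list of cytoskeleton and adhesion genes 13 of 25 were higher and 1 lower (median 0.60), with *Tuba1a*, a tubulin, at 4.20 ± 0.37 and *Cdh6*, a cadherin of the embryonic tubule, at 4.11 ± 0.44. *Cdh6* stood at 93.1, 89.2, 10.8 and 2.36 CPM, and so was high in the young libraries.

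In the list of immediate early and heat shock genes 18 of 34 were higher and 2 lower (median 0.93). *Egr1*, a transcription factor of the early growth response, stood at 1673, 918, 710 and 402 CPM, against 250, 173, 162 and 90.2 CPM (1.96 ± 0.13, adjusted p = 3.1e-18). *Junb* followed it (1.88 ± 0.14), as did *Myc*, a driver of growth (2.68 ± 0.23), and *Hspb1*, a small heat shock protein (2.40 ± 0.31). Of 18 genes of senescence and cell cycle arrest 6 were higher and 1 lower (median 0.46), among them *Trp53* (1.44 ± 0.18) and the stress hormone *Gdf15* (0.96 ± 0.15). Of 19 genes of proliferation 2 were higher and 1 lower (median -0.35, which turned to 0.09 on library totals), which left 16 not past the threshold.

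Some genes of the proximal tubule program were lower in members, and the medians of the segment lists differed. Of 30 identity genes 16 were lower and none higher (median log2 fold change -1.21, and 23 lower without other classes' markers). On library totals without TMM 18 were lower and 5 higher. *Slc34a1*, the sodium phosphate transporter, stood at 1919, 3388, 2994 and 3205 CPM, against 3605, 4132, 3772 and 3797 CPM (-0.84 ± 0.14, adjusted p = 4.7e-06). It was thus reduced but remained detected in 93.8% of members. *Slc22a6*, the organic anion transporter OAT1, stood at 189, 107, 273 and 317 CPM, against 489, 625, 558 and 621 CPM (-1.74 ± 0.31, adjusted p = 0.018). *Cyp4b1*, a cytochrome P450, stood at 393, 343, 837 and 1284 CPM, against 1265, 1531, 1799 and 2384 CPM (-1.81 ± 0.25, adjusted p = 0.0021), and *Hpd*, an enzyme of tyrosine breakdown, was lower by more (-2.89 ± 0.22, adjusted p = 3.8e-16).

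Genes of the S3 segment had a lower median (-1.97) than genes of the S1 and S2 segments (0.09). Of 9 S3 genes 5 were lower and none higher, and of 10 S1 and S2 genes 3 were lower and none higher, while 7 were higher on library totals without TMM. Without other classes' markers 8 of the 9 S3 genes were lower. *Slc7a13*, the S3 transporter AGT1, stood at 81.1, 0, 115 and 44.8 CPM, against 243, 247, 432 and 596 CPM (-2.98 ± 0.65, adjusted p = 0.078, and -2.92 with adjusted p = 1.1e-36 without other classes' markers). It was detected in 25.0% of members, against 72.4% of depth-matched marker-negative cells. *Slc5a12*, a lactate transporter of the early segments, stood at 168, 294, 225 and 432 CPM, against 168, 170, 146 and 207 CPM (0.26 ± 0.15, adjusted p = 0.25), and was detected in 69.8% of members, against 43.6%. *Slc5a2*, the glucose transporter SGLT2 of the early segments, had 0.15 ± 0.24 (adjusted p = 0.78). *Atp11a*, a lipid flippase of the S3 list, was lower by -1.50 ± 0.16. Of 17 transcription factors of the proximal tubule list, which also holds *Sox4* and *Sox9*, 4 were higher and 1 lower, the last being *Lhx1* (-0.76 ± 0.25), and *Hnf4a*, the master regulator of PTEC identity, stood at 162, 169, 238 and 295 CPM, against 163, 184, 208 and 216 CPM (-0.22 ± 0.14, adjusted p = 0.31).

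Most genes of 3 lists of energy metabolism were lower relative to most genes. Of 36 genes of fatty acid oxidation 28 were lower and 1 higher (median -0.88), of 27 genes of the citrate cycle 20 were lower (median -0.58), and of 73 nuclear genes of oxidative phosphorylation 71 were lower (median -0.64). Without other classes' markers the numbers lower were 27, 16 and 60. On library totals without TMM 21, 6 and 21 genes were lower and 1, 2 and 1 higher, with medians of -0.49, -0.19 and -0.25, so most genes of the citrate cycle and of oxidative phosphorylation did not pass on that scale. *Acaa1b*, a peroxisomal thiolase, stood at 63.1, 26.7, 172 and 154 CPM, against 215, 266, 385 and 383 CPM (-1.92 ± 0.31, adjusted p = 0.0098), and was lower in every library, as was *Cyp4a10*, a fatty acid hydroxylase (-1.65 ± 0.17). *Cpt1a*, which carries fatty acids into mitochondria, had -0.42 ± 0.15 (edgeR adjusted p = 0.046). Neither that call nor its size held on library totals (-0.05), and the call was also lost without other classes' markers (adjusted p = 0.38). *Ppara*, which encodes the regulator of fatty acid oxidation, stood at 21.0, 31.2, 64.1 and 70.7 CPM, against 33.1, 39.1, 63.5 and 56.8 CPM (-0.34 ± 0.17, adjusted p = 0.17).

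In single libraries the median log2 ratio of CPM + 1 in the respiratory chain list, on library totals, was -0.42, -0.04, -0.23 and -0.22, and so near 0 in young KAP mice. In young KAP members without other classes' markers the list summed to 57936 CPM, above the 50757 CPM of marker-negative cells. *Uqcrc2*, of complex III, stood at 219, 143, 233 and 216 CPM, against 303 to 320 CPM (-1.001 ± 0.14, adjusted p = 1.3e-07), *Sdhb*, of complex II, had -1.004 ± 0.14 and *Mdh1* -0.96 ± 0.13. Of 16 genes of glycolysis 6 were lower and none higher (median -0.31), but on library totals 2 were lower and 1 higher and the median turned to 0.07. Of 19 antioxidant genes 11 were lower (median -0.48), among them *Nqo1* (-1.48 ± 0.23), *Gclm* (-1.10 ± 0.14) and *Sod1* (-1.01 ± 0.14). Of 20 genes of endocytosis and the brush border 13 were lower (median -0.59), among them the brush border proteases *Mep1a* (-1.34 ± 0.13) and *Mep1b*, which had 4, 0, 0 and 0 UMIs in members.

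**Figure D3:**
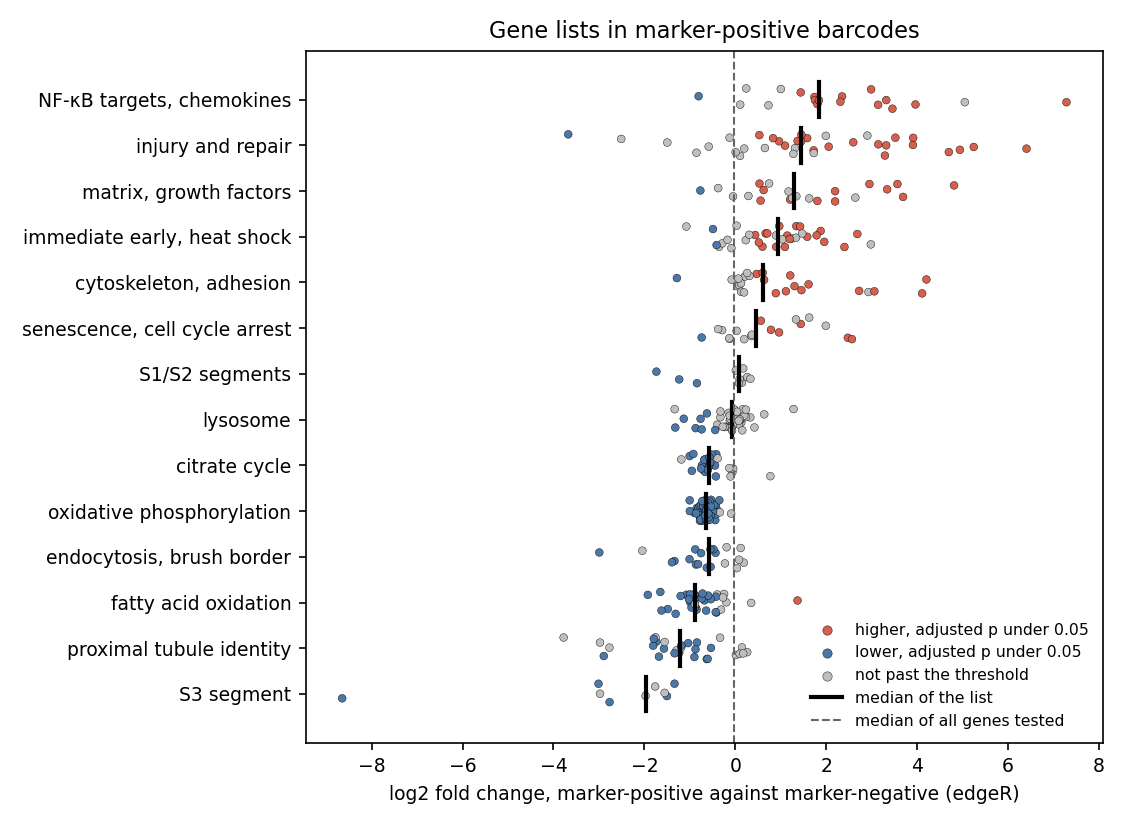
Log2 fold changes of marker-positive against marker-negative cells (x axis, edgeR) for the tested genes of 14 lists (rows), each point a gene, with red for higher, blue for lower and grey for genes not past an adjusted p of 0.05. Thick bars are list medians, from 1.84 for NF-κB targets to -1.97 for the S3 segment, and the dashed line is the median of all genes tested.

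Lysosomal genes, which include targets of TFEB, did not move as a list. Of 45 genes 7 were lower and none higher (median -0.07), but on library totals without TMM 17 were higher and 2 lower (median 0.30), so the direction depended on the scale. *Ctsb*, cathepsin B, had 0.13 ± 0.15 (adjusted p = 0.65) and *Lamp1*, a protein of the lysosomal membrane, 0.01 ± 0.13 (adjusted p = 0.99). *Tfeb* itself was counted in few members. It had 7, 4, 10 and 5 UMIs, or 21.0, 17.8, 7.21 and 5.89 CPM, against 7.87, 6.87, 7.12 and 4.28 CPM in marker-negative cells (0.31 ± 0.36, adjusted p = 0.64). In marker-negative cells the level was lower in the aged KAP library than in the other 3. Counts at the 3′ end do not show whether the floxed part of the gene was deleted, so these values do not check the genotype.

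The 10 largest fitted decreases were mostly of genes known from other cells. *Hbb-bs*, a haemoglobin, *Atp6v1g3*, of intercalated cells, and *Pgam2* had 0 UMIs in the members, in which they were written as an explicit 0, the trace of the correction described next, in 65.6, 28.1 and 41.7% of cells, so no fold is given. In marker-negative cells they had UMIs in 0.219, 1.53 and 4.65% of barcodes and were written as 0 in 43.5, 20.6 and 27.2%. At the same share few of the 96 members or none would hold *Hbb-bs* or *Atp6v1g3*, so these 2 calls do not show a decrease in the cells. The call of *Pgam2* cannot be told from the effect of the correction. *Klk1*, kallikrein of the connecting tubule, stood at 3.00, 0, 0 and 0 CPM, against 794, 560, 584 and 306 CPM, and *S100g*, *Defb1*, *Calb1*, *Mal*, *Tmem52b* and *Slc12a3*, most of them known from the distal nephron, completed the 10. Markers of 4 distal classes were also among the lower genes. In the thick ascending limb list 3 of 5 were lower, in the distal convoluted list 2 of 3, in the connecting and principal list 4 of 8 and in the intercalated list 7 of 7. In the same order, only 1, 0, 3 and 6 of these tested genes were written as 0 in under 10% of both kinds of cell. Of those, 0, 0, 3 and 6 were lower. The part of the correction in the other calls was not tested. Marker-negative cells carried markers of the thick ascending limb in 5.41%, of the distal convoluted tubule in 1.58% and of intercalated cells in 1.25% of barcodes, and members in none. Markers of connecting and principal cells, whose list holds *Calb1*, were carried by 8.33% of members and 7.11% of marker-negative cells. Without cells that carried other classes' markers, 8 of the 10 could not be tested or did not pass, while *Slc12a3* (-2.27) did, as did *Hbb-bs*, within the limit just given. *Slc12a3* was written as 0 in 75.0% of members and 49.9% of marker-negative cells, with a UMI left in 7.29 and 9.16%. Its decrease therefore cannot be told from the effect of the correction either. Of the remaining class lists, 4 of 10 endothelial, 3 of 3 parietal, 4 of 9 mesangial and mural and 1 of 5 podocyte genes were higher, with 3 mesangial and mural genes and 1 podocyte gene lower, and no gene of the myeloid (6 tested) or fibroblast (1 tested) lists passed. Without other classes' markers no endothelial gene of 8 was higher.

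The matrices had been corrected for free RNA before deposit, and this touched some of these genes. Entries written as 0, which such a correction leaves where it takes away all counts of a gene, made up 2.90, 12.5, 9.41 and 12.9% of the entries in the matrices. *Klk1* was written as 0 in 96.9% of members and 80.6% of marker-negative cells, and *S100g* in 97.9 and 89.9%. *Kap*, the androgen-regulated protein of male PTECs, stood at 6129, 0, 11767 and 7233 CPM, against 41750.3, 36864, 41014 and 51711 CPM (-3.78 ± 1.75, adjusted p = 0.30), and was written as 0 in 7, 10, 17 and 11 members. All 10 members of young Tfebfl/fl KAP mice thus had *Kap* entries set to 0, and its level there cannot be told from the effect of the correction. Of the genes called higher and lower, 9.62 and 8.76% were written as 0 in at least 10% of either kind of cell, against 3.88% of all genes tested. For *C3*, *Cp*, *Cxcl1* and *Sox4* the share of members was at most 4.17%, and all 73 genes of oxidative phosphorylation were under 10%. *Tmsb10* was written as 0 in 33.3% of members and 10.6% of marker-negative cells, and *Spp1* in 28.1 and 46.9%. For *Slc7a13* it was 16.7 and 4.37%, and the part of the correction in its lower detection was not tested. *Clu* was written as 0 in 71.9 and 38.7%, with a UMI left in 10.4 and 5.72%. The negative value of *Clu* therefore cannot be told from the effect of the correction. Genes under 10% in both kinds of cell numbered 11 of 34 in the list of immediate early and heat shock genes (5 higher, 1 lower), 21 of 36 in the injury and repair list (14 higher, 1 lower) and 17 of 19 in the NF-κB list (13 higher, 1 lower).

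The members were not alike. For each cell the share of UMIs from the injury and repair list was set against the 95th percentile of marker-negative cells of its own library, and the share from the identity list against the 5th percentile. Of the 96 members, 43 were above the first limit (5, 7, 21 and 10), 40 below the second (5, 5, 19 and 11), 34 met both and 47 neither. Among the 72 members without other classes' markers 26 were above the limit for injury genes and 21 met both. Medians over all 4 libraries were ordered by the number of marker UMIs in the injury, NF-κB and identity lists. From cells with 0, 1, 2, 3 to 4 and 5 or more marker UMIs, the median of the injury and repair list was 12.0, 12.3, 20.3, 26.8 and 78.4 per 10000 UMIs, and that of the NF-κB list 6.95, 7.64, 9.14, 10.9 and 32.7. The identity list went the other way, at 601, 547, 321, 267 and 216, and the S3 list stood at 24.2, 21.4, 10.3, 11.5 and 6.89. Cells with 1 marker UMI, just outside the rule, had medians in the injury list of 23.7, 17.8, 11.3 and 12.2 in the 4 libraries, against 15.6, 12.5, 10.47 and 10.3 in marker-negative cells. Over all libraries cells with 2, just inside it, lay between these and the cells with 5 or more. Single libraries did not always keep this order. In the young KAP library, cells with 2, 3 to 4 and 5 or more marker UMIs had NF-κB medians of 16.0, 14.9 and 14.1 and identity medians of 195, 196 and 217, over 4, 3 and 3 cells. These medians describe the cells, which are not replicates, and the median depth of the 5 sets was 18950, 24934, 18290, 28473.5 and 30414 UMIs. The marker itself also differed between the sets. In cells with 1 marker UMI it was *Vcam1* in 5 of 32, 13 of 25, 99 of 110 and 29 of 40 cells. All members of young mice carried *Vcam1* alone.

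**Figure D4:**
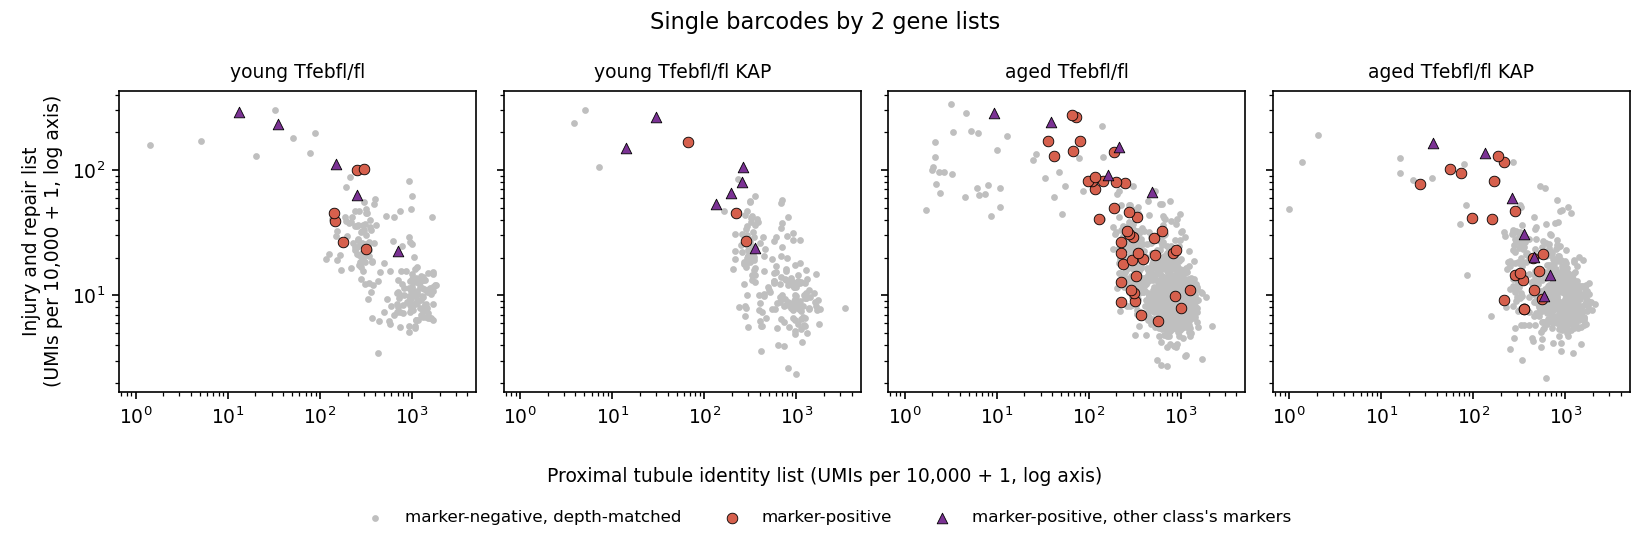
Each point is a barcode, with the share of the proximal tubule identity list on the x axis and of the injury and repair list on the y axis (UMIs per 10000 + 1, log axes), in the 4 libraries. Marker-positive barcodes without (circles) and with other classes' markers (triangles) extend from the mass of depth-matched marker-negative barcodes (grey) towards high injury and low identity shares, and 47 of the 96 lie past neither limit.

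**Figure D5:**
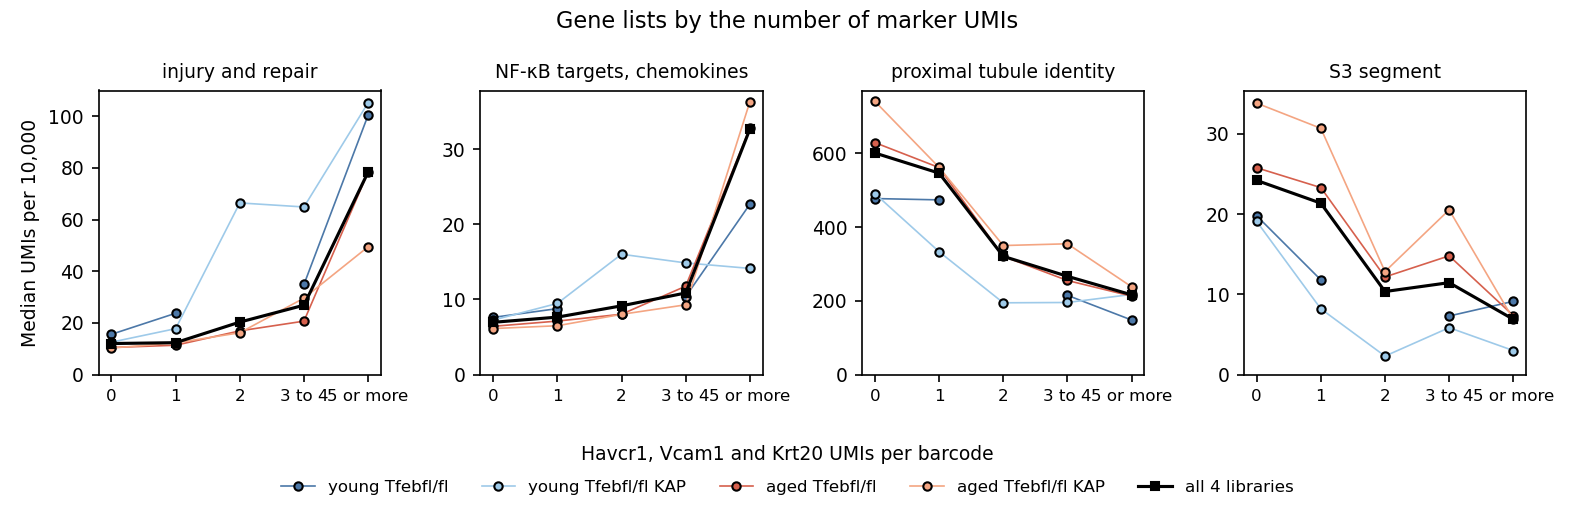
Median share of 4 gene lists (UMIs per 10000, y axis) in PTEC barcodes grouped by their *Havcr1*, *Vcam1* and *Krt20* UMIs (x axis), for each library (circles) and all 4 (black squares). The injury list is 12.0 at 0 and 78.4 at 5 or more marker UMIs, and the identity list 601 and 216.

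Whether the difference between marker-positive and marker-negative cells itself changed with age was tested as an interaction over the 8 sums, with 2 young and 2 aged libraries. Of 12882 genes 206 passed (1.6%), 126 with a larger value in aged mice, and 51 passed without other classes' markers, which were more frequent in young members. *Spp1* was 1.07 ± 0.20 further above marker-negative cells in aged mice (adjusted p = 2.0e-05, and 2.49 without other classes' markers). Whether its level in members was higher or lower in aged mice depended on the cells used. Between aged and young Tfebfl/fl members the log2 ratio was -0.65, but 1.28 without other classes' markers, and in KAP mice -1.31 and -1.10. *Timp2*, at 141, 205, 30.3 and 22.4 CPM in members, had the opposite sign (-2.13 ± 0.53, adjusted p = 0.0067). *Slc5a2* (1.09 ± 0.21) and *Ctsb* (0.82 ± 0.21) also had larger values in aged mice, and both passed in cells without other classes' markers. *Slc5a2* stood at 303, 597, 273 and 306 CPM in members, against 335, 486, 124 and 178 CPM, so that members were above marker-negative cells in all libraries but that of young Tfebfl/fl mice. *Cp* (-1.45 ± 0.29) and *Krt18* (-3.27 ± 0.57) did not pass there (adjusted p = 0.97 for both). With marker-negative cells matched for depth 68 genes passed, and *Spp1* (0.82) and *Slc5a2* (0.88) did not (adjusted p = 0.073 for both), nor did *Ctsb* (0.64, adjusted p = 0.33), *Timp2* (-1.44, adjusted p = 0.34) and *Cp* (-1.79, adjusted p = 0.63), while *Krt18* did (-3.25, adjusted p = 0.0024).

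Members of aged and young mice were also set side by side, as ratios of CPM with exact intervals that cover counting error only. In Tfebfl/fl mice 196 of 5821 genes were at least 2-fold higher in aged members and 427 lower with an interval that left out 0 (10.7% together), against 32 and 48 of 4862 genes in marker-negative cells. In KAP mice it was 219 and 475 of 5801 (12%), against 39 and 49 of 4754. The number of members, 48 against 11 and 27 against 10, made each ratio rest on few cells. *Ptn*, a heparin-binding growth factor with 226 UMIs in aged Tfebfl/fl members, was found in 5 of 48 cells and 35.8% of its UMIs were from 1 cell, and *S100a6*, with 45 UMIs in young members, in 2 of 11. *Nat8f1*, an acetyltransferase, was spread more widely, at 718 against 120 CPM (log2 ratio 2.58, interval 2.12 to 3.07) with UMIs in 42 of 48 and 7 of 11 cells, while in marker-negative cells it was 1079 against 760.0 CPM. *Cyp2d12*, a cytochrome P450, was the largest ratio in KAP mice (381 against 4.46 CPM), in 17 of 27 and 1 of 10 cells, and in marker-negative cells it was also higher in aged mice (575 against 38.4 CPM). *Cd74* stood at 412 CPM in 17 of 27 aged KAP members and 26.7 CPM in 4 of 10 young ones. In the injury and repair list the median log2 ratio was -1.48 in aged against young Tfebfl/fl members (-0.30 in marker-negative cells), and -0.67 in KAP mice (-0.22). The list summed to 9799 and 5197 CPM in young and aged Tfebfl/fl members, but to 4921 and 4466 CPM without other classes' markers. In KAP members it summed to 8145 and 4140 CPM, and to 6912 and 3861 CPM without these markers. In the identity list it was 0.64 (0.28) and 0.93 (0.14).

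The interaction with genotype, over 2 Tfebfl/fl and 2 Tfebfl/fl KAP libraries, passed for 14 of 12882 genes (0.109%), and for 2 without other classes' markers. Both of these were lower in KAP mice. *Cdkn1a* had the values given above, high at 300 and 66.3 CPM in Tfebfl/fl members and at 26.7 and 10.6 CPM in KAP members, while marker-negative cells were at 11.6 to 17.8 CPM (-3.21 ± 0.43, adjusted p = 4.0e-10, and -2.69 with adjusted p = 0.0029 without other classes' markers). Its UMIs came from 7 of 11, 3 of 10, 13 of 48 and 3 of 27 cells, with 44.0 and 35.9% from 1 cell in the 2 Tfebfl/fl libraries. *Ly6a*, the surface antigen Sca-1, stood at 336, 53.5, 219 and 36.5 CPM in members, against 317, 410, 328 and 443 CPM (-3.14 ± 0.36, adjusted p = 1.4e-14, and -3.64 without other classes' markers). In aged mice its UMIs came from 26 of 48 Tfebfl/fl and 8 of 27 KAP members. With marker-negative cells matched for depth only *Ly6a* passed (adjusted p = 0.0048), and *Cdkn1a* did not (-2.71, adjusted p = 0.9999). The 2 genes were picked by this interaction in these same libraries, so their separation by genotype is no independent check. The 2 libraries of a genotype differed in age.

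Between genotypes at the same age, 69 of 5576 genes were higher and 105 lower in aged KAP than aged Tfebfl/fl members (3.12%), against 12 and 8 of 4818 in marker-negative cells. Together these numbered 174, and 371 at no more than 20% mitochondrial UMIs. In young mice it was 269 and 191 of 6089 (7.55%), against 5 and 18 of 4815. *Crip1*, a LIM protein, had 186 UMIs in 20 of 48 aged Tfebfl/fl members and 2 in KAP members, or 134 against 2.36 CPM, and was also lower in marker-negative cells of KAP mice (2.29 against 7.59 CPM). *Angptl4*, a target of PPARs that regulates lipoprotein lipase, was higher in aged KAP members (86.0 against 32.4 CPM, in 21 of 27 and 20 of 48 cells), and in marker-negative cells too (71.7 against 32.9 CPM). *Slc34a1* differed little between aged members (log2 ratio 0.10, interval 0.03 to 0.17). *Spp1* was lower in aged KAP members (-0.71, interval -0.82 to -0.60), as it was in marker-negative cells (-0.79). It was written as 0 in 55.6% of aged KAP and 22.9% of aged Tfebfl/fl members, and in 73.3 and 57.8% of their marker-negative cells. The part of the correction in this difference was not tested. In young mice the leading ratios rested on single cells, such as *Serping1*, whose 31 UMIs were all from 1 KAP cell, and *Iigp1*, whose 247 UMIs were all from 1 Tfebfl/fl cell.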

How the data were processed

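Renal cortex of male mice was profiled as 3′ single-cell libraries (10x), 1 for each of 4 conditions. Per the submitters' processing notes, Cell Ranger 6.0.0, Seurat 4.4.0 and the mm10 build were used, and the study's methods name SoupX for the correction of free RNA. The matrices the authors deposited hold whole-number UMI counts per gene and barcode. Barcodes were selected by the rule given in the report, and Scrublet (scanpy 1.11.5) marked doublets without removing them. Counts were summed over marker-positive and marker-negative barcodes of each library. The 8 sums were compared with edgeR 4.0.16 (R 4.3.3; TMM, filterByExpr with a minimum count of 10, quasi-likelihood test, Benjamini-Hochberg adjusted p under 0.05) with the library as a block, and DESeq2 1.42.0 was an alternative. The block pairs the 2 kinds of cell of 1 library, which come from the same mice. Interactions with age and genotype were fitted over the same sums. Libraries are the replicates of the comparison of marker-positive with marker-negative cells, and no condition has a second library, so conditions were compared as ratios of CPM with exact conditional binomial intervals, and shares with exact Clopper-Pearson 95% intervals. Intervals cover counting error only. Named genes were the 15 largest increases and 10 largest decreases past the threshold at 20 CPM or more in the higher kind of cell and with 1 sign in all 4 libraries, up to 4 called genes of each of 29 lists by size, 24 genes always named, and for each pair of conditions the 5 largest ratios each way at a mean of 50 CPM or more. *Dcn*, the most abundant gene of its list, was named after its values were seen. Of these, 2 genes are not reported here. Members, lists and genes were chosen with earlier results of these data known. The fit was tested on simulated data. Alternatives covered scaling, filters, depth, doublets, mitochondrial UMIs, marker and *Lrp2* thresholds, other classes' markers and leaving out each library.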

Additional observations from a re-analysis of the deposited data

Results flagged for a closer look

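The difference between marker-positive and marker-negative PTECs changed with age or genotype for the genes below, by a test of the interaction over the 8 sums (edgeR, adjusted p under 0.05, 2 libraries against 2). Values are differences of log2 fold changes, and no cause was tested.

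Among the 5 largest differences with age, each gene was at 0 UMIs in the members of both libraries of 1 age, so that the fitted value depends on the prior count and is no measure of size. These were *Hopx* (15.35, with 58 and 11 UMIs in aged members), *Kcnk1* (-11.93, with 17 and 4 UMIs in young members), *Nat8f5* (11.3, with 4 and 30), *Fmnl1* (11.22, with 23 and 10) and *Sun1* (11.14, with 20 and 11). None of the 5 passed in cells without other classes' markers or with depth-matched marker-negative cells, where *Hopx* and *Kcnk1* could not be tested.

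Further genes differed with age. The value was larger in aged mice for *Adamts5* (1.947), *Acaa1b* (1.271), *Slc22a8* (1.205), *Cyp4b1* (1.111), *Slc5a2* (1.089), *Spp1* (1.072), *Cxcl1* (1.056), *Slc22a6* (1.045) and *Ctsb* (0.8213). It was smaller for *Krt18* (-3.27), *Timp2* (-2.135) and *Cp* (-1.451). Without other classes' markers *Timp2*, *Spp1*, *Slc5a2* and *Ctsb* passed, and with depth-matched marker-negative cells *Cyp4b1*, *Slc22a8* and *Krt18* did. The direction of *Adamts5* turned without other classes' markers (-2.24, adjusted p = 0.79).

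With genotype, KAP libraries against Tfebfl/fl libraries, the value was larger for *Mt2* (5.036) and *Hsd11b2* (2.526) and smaller for *Cdkn1a* (-3.211), *Ly6a* (-3.139), *Slco1a1* (-2.508) and *Slc7a13* (-2.289). *Ly6a* passed both without other classes' markers and with depth-matched cells, *Cdkn1a* passed the first alone, and the other 4 passed neither. Without other classes' markers these 4 had 3.74 (*Mt2*), 0.18 (*Hsd11b2*), -2.47 (*Slco1a1*) and -1.80 (*Slc7a13*). With depth-matched cells they had 5.24, 2.61, -2.36 and -2.26 in the same order. Of these values only that of *Hsd11b2* without other classes' markers was far smaller than before.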

How the results depend on the processing

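With all libraries and TMM, 998 genes were higher and 1392 lower. A fit at no more than 20% mitochondrial UMIs called 626 and 780 (568 and 703 of them also called before), one without other classes' markers 609 higher (496 shared), one there with depth-matched cells 535 and 853 (418 and 800 shared), and one on library totals without TMM 3116 and 608 (998 and 588 shared). The last 2 settings were chosen after seeing the data. Leaving out 1 library gave 682 to 977 higher and 1101 to 1368 lower. Without the replicate block, which pairs the kinds of cell within a library, 781 were higher and 928 lower, and 34 of 117 called named genes were lost. Interactions numbered 68 with age and 1 with genotype for depth-matched cells, and 51 and 2 without other classes' markers. The share was 0.144% in young Tfebfl/fl mice without doublets, 0.783% (no more than 20% mitochondrial UMIs) and 0.112% (without other classes' markers) in young KAP mice, and 1.25 and 0.747% in aged Tfebfl/fl and KAP mice at 3 marker UMIs. Genes past the fold between aged genotypes numbered 371 at no more than 20% mitochondrial UMIs. By the mean of each cell's CPM and the 2-fold limit alone, with no interval required, they numbered 264. The same setting gave 1240 between young genotypes and 1253 between KAP ages. Both choices changed at once there, so these counts cannot be put down to either. List medians without TMM were 0.48 for S1 and S2, 2.21 for NF-κB, 1.67 for matrix, 0.995 for cytoskeleton, 1.32 for immediate early genes, -0.49 for fatty acid oxidation, -0.19 for the citrate cycle, -0.25 for oxidative phosphorylation and 0.30 for the lysosome. The injury median was 1.94 without other classes' markers and the NF-κB median 2.27 without a filter. The matrix median was 0.88 without doublets and 0.39 without other classes' markers in depth-matched cells. The citrate cycle median was -0.46 without doublets, -0.65 at 3 marker UMIs, -0.48 at 5 *Lrp2* UMIs and -0.50 without other classes' markers in depth-matched cells. Leaving out 1 library gave medians of 1.71 to 2.18 for NF-κB, 1.23 to 1.69 for matrix and -0.64 to -0.54 for the citrate cycle. Directions turned for *Pvalb* (0.26), *Ehd3* (-0.65) and *Clu* (3.27) without other classes' markers, for *Slc5a2* without the block (-0.0612) and without aged Tfebfl/fl mice (-0.130, with 0.370 as the highest value on leaving out 1 library), for *Hnf4a* (0.17) and *Ppara* (0.00292) without TMM, for *Ctsb* without aged KAP mice (-0.0871, highest 0.318), and for *Lamp1* without a filter (-0.0509), without aged Tfebfl/fl (-0.0750) or aged KAP mice (-0.105, highest 0.115) and by *Vcam1* alone (-0.00267). The cause was not tested. Members by *Havcr1* or *Krt20* alone were not run, since these lacked cells in 2 or more libraries. With 10 and 11 members, the young libraries limit what can be detected.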
